A study of Caenorhabditis elegans with 12 samples.

Results

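Worms fed a nuclear extract of thymus were set against worms fed a cytoplasmic extract of the same organ. Of the 12 libraries of the study, 6 entered this comparison, chosen by the diet in their titles: 3 of worms on the nuclear extract and 3 of worms on the cytoplasmic extract. The 3 libraries of the control diet served as a level to read both extracts against, and the remaining 3 libraries, of worms fed desiccated thymus, entered only the filter on low counts, the scaling and the estimate of the spread. All were whole Caenorhabditis elegans, raised with live bacteria until the last larval stage and moved to their diets on day 1 of adulthood, in chips. The thymus is bovine according to the study's title, and the strain, the age at collection and the number of worms per library are not given in the sources used here. Messenger RNA was enriched with oligo(dT) and sequenced, and read counts per gene were deposited.

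An extract fed to a worm meets the intestine first. The intestine of C. elegans is a tube of large cells that digests bacteria and takes up peptides, amino acids, lipids and nucleosides. It also stores fat, holds granules related to lysosomes, and makes the yolk proteins that pass to the oocytes. The outer surface is a cuticle of collagens secreted by the hypodermis, the worm's skin, and an adult hermaphrodite's remaining RNA comes in large part from the germline. In whole worms, more cells of a type and more RNA per cell cannot be told apart.

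The libraries of the nuclear extract held 23.1 to 25.7 (in units of 1e6 counts), those of the cytoplasmic extract 25.8 to 29.2 and those of the control 25.2 to 30.2, so depth did not overlap between the extracts. Ribosomal RNA took 0.377% to 0.684% of counts with the nuclear extract, 0.74% to 2.16% with the cytoplasmic extract and 0.467% to 1.46% with the control. Desiccated thymus replicate 3 stood apart with 14%. In a principal component analysis of the 6 extract libraries, the first component (45.3% of the variance) split both diets, with nuclear replicate 2 and cytoplasmic replicates 1 and 2 on one side. The extracts did not overlap on the second component (21.5%). Summed sperm transcripts ran along the first split: 20.6, 100 and 17.2 CPM (counts per 1e6 counts of the library) in nuclear replicates 1 to 3, against 45, 50.6 and 11.5 CPM in cytoplasmic replicates 1 to 3. The part of depth, ribosomal RNA or this split in the results was not tested beyond the fits reported with them. The labels do not tell whether replicates came from separate cultures, so every p-value covers only the spread among these samples, and that spread may be technical.

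The difference between the extracts was mostly one way. Of 14610 genes tested, 259 (1.77%) passed an adjusted p of 0.05 (edgeR's quasi-likelihood test, Benjamini-Hochberg adjustment over all genes tested). With the nuclear extract 235 of them (1.61%) were higher and 24 (0.164%) were lower. The higher genes had a median log2 fold change of 0.63 (range 0.15 to 2.04), and 102 of them differed by less than 1.5-fold. The lower genes had a median decrease of 0.37 on the log2 scale, and 16 of the 24 differed by less than 1.5-fold. Genes that passed and differed at least 2-fold numbered 37 (0.253% of genes tested), 34 higher and 3 lower. Over all genes tested the median log2 fold change was 0.01. The genes that rose had a median of 18.9 CPM in the nuclear extract, and the median over all genes tested in the higher of the extracts was 11.2 CPM.

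These counts rested on all 6 libraries. Without nuclear replicates 1, 2 and 3 in turn, 90, 135 and 108 genes passed, and without cytoplasmic replicates 1, 2 and 3, 104, 87 and 156. Without desiccated thymus replicate 3, which is in neither of these diets but shares the filter, the scaling and the spread, 151 of 15043 genes tested passed. Called in each of the 6 fits that leave out 1 extract library were 55 higher genes and 2 lower genes, named below as holding in each such fit. Another 68 higher and 5 lower genes passed in none of those fits. The smallest two-sided p of an exact permutation test over 3 and 3 libraries is 0.1, so single genes were tested only in the fit across all genes.

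**Figure D1:**
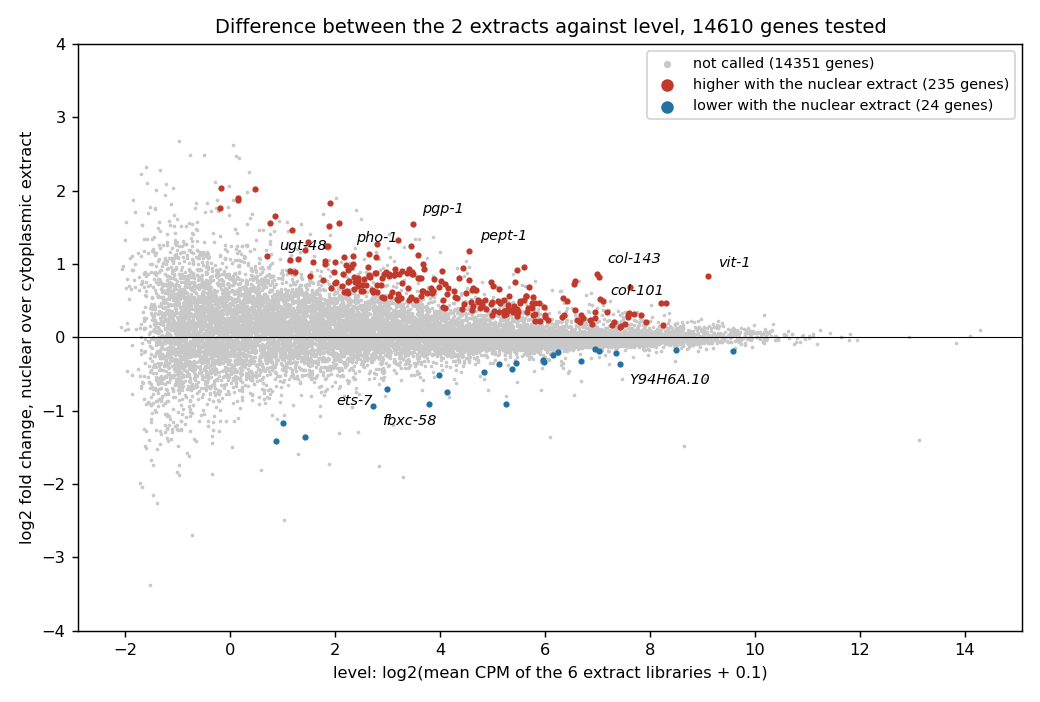
Each point is 1 of 14610 genes tested, with its level over the 6 extract libraries on the horizontal axis (log2 of mean CPM + 0.1) and its log2 fold change, nuclear over cytoplasmic extract, on the vertical axis. Genes that passed are coloured, 235 higher and 24 lower with the nuclear extract, and 1 gene lies outside the plotted range.

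Genes of the intestine were among those that rose most. Of 13 intestine markers, 3 passed, all higher with the nuclear extract, against 1.61% of all genes tested. The median log2 fold change of the 13 was 0.52, against 0.01 over all genes tested. Markers of other body tissues also had positive medians, 0.36 for 11 hypodermis markers, 0.33 for 4 pharynx markers and 0.22 for 17 body wall muscle genes, and the part of such a shift in the intestine result was not tested. The 3 were pgp-1, pho-1 and pept-1, and the same count of 3 was found without each of the 6 extract libraries and without desiccated thymus replicate 3. DESeq2 called 6 of the 13, and 5 passed with only the extract libraries fitted. Pgp-1 (chromosome IV, 12591695 to 12599169, WBcel235), a P-glycoprotein that pumps foreign compounds out of intestinal cells, stood at 17.9, 15.4 and 16.4 CPM with the nuclear extract, 5.88, 4.99 and 6.1 CPM with the cytoplasmic extract and 4.1, 3.67 and 3.97 CPM with the control. Every nuclear extract library was above every cytoplasmic one, and every cytoplasmic one above every control library. Its log2 fold change between the extracts was 1.55 (SE 0.129, adjusted p = 2.3e-05). Pept-1 (chromosome X, 6456872 to 6461767), the intestinal carrier of dipeptides and tripeptides, stood at 36.1, 28.6 and 32.4 CPM with the nuclear extract, 14.6, 9.95 and 18.3 CPM with the cytoplasmic extract and 8.43, 9.93 and 8.33 CPM with the control. The extracts did not overlap, and cytoplasmic replicates 1 and 3 lay nearer to the nuclear libraries than replicate 2 did. Pept-1 rose by 1.18 on the log2 scale (SE 0.171, adjusted p = 0.00474), a call that was lost when only the 6 extract libraries were fitted (adjusted p = 0.0844).

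Pho-1 (chromosome II, 5233156 to 5235846), an acid phosphatase of the intestine, had another order of diets. Its levels were 14.5, 14.9 and 15.9 CPM with the nuclear extract, 7.8, 5.8 and 5.54 CPM with the cytoplasmic extract and 7.72, 8.07 and 6.88 CPM with the control. Here the nuclear extract stood alone, above overlapping levels of the cytoplasmic extract and the control, and the log2 fold change between the extracts was 1.25 (SE 0.153, adjusted p = 0.000731). The exons of pho-1 overlap EGAP2.1 on the other strand, and no strand setting of the counting is given, so reads of this pair cannot be told apart. Among markers that did not pass, act-5, the actin of the intestinal microvilli, stood at 139, 138 and 145 CPM with the nuclear extract, 91.8, 89.9 and 95.9 CPM with the cytoplasmic extract and 88.4, 109 and 110 CPM with the control (log2 fold change 0.61, adjusted p = 0.0856). The transcription factor elt-2, which drives intestinal genes, had a log2 fold change of 0.52 (adjusted p = 0.0973), and its partner elt-7 one of -0.06. The abundant protease gene asp-1 had -0.02. Libraries of the extracts did not overlap for 11 of the 13 markers, all higher with the nuclear extract, against 12.6% of all genes tested. Summed over the 13, the intestine markers came to 2180, 2150 and 2150 CPM with the nuclear extract, 1960, 2120 and 1870 CPM with the cytoplasmic extract and 1960, 2090 and 2170 CPM with the control, so the sum overlapped between the nuclear extract and the control.

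**Figure D2:**
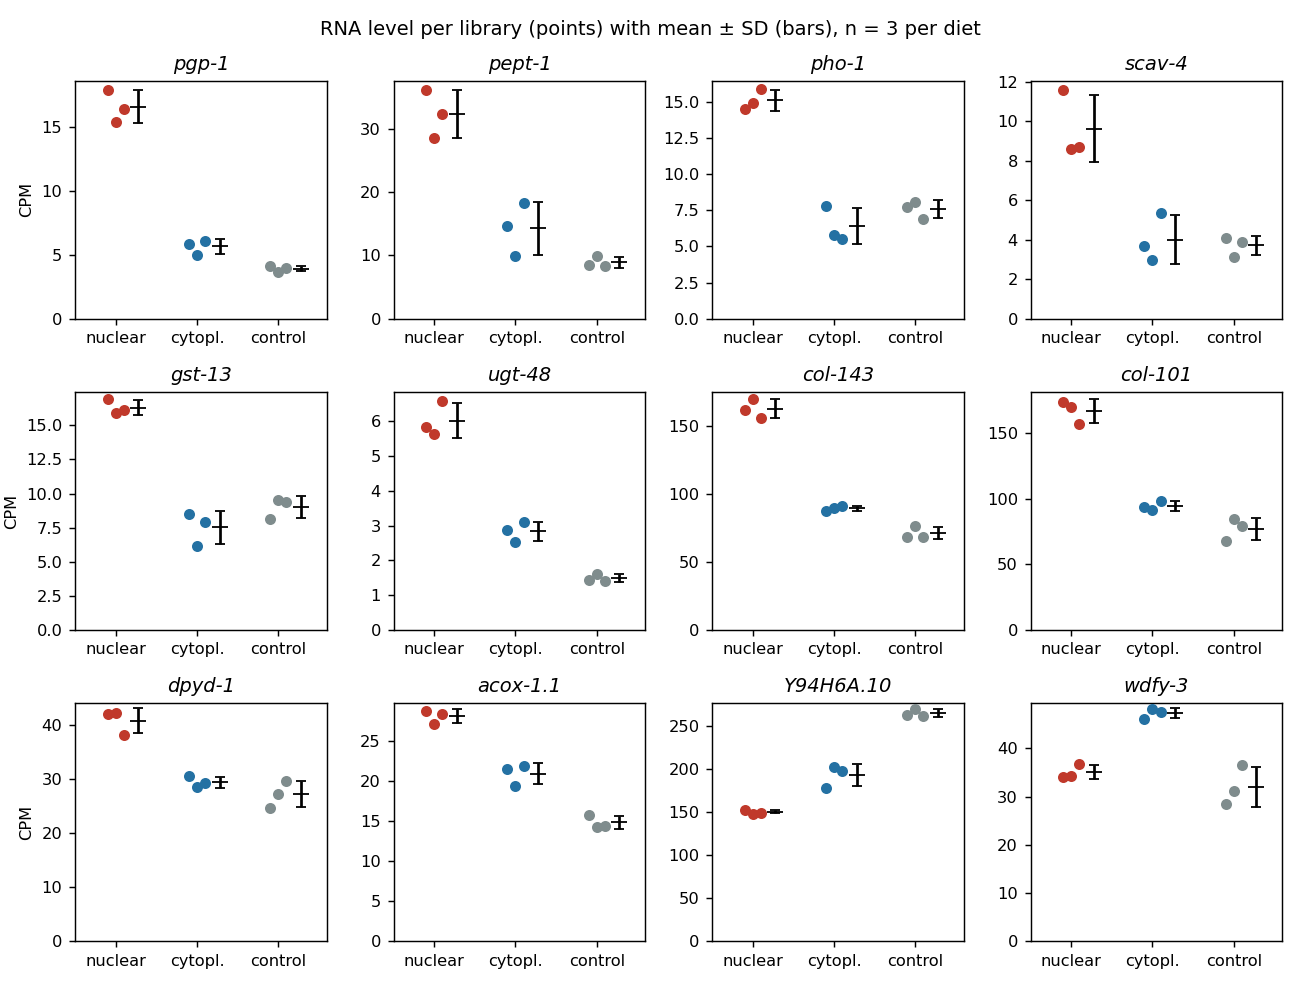
CPM of 12 genes in each library of the nuclear extract, the cytoplasmic extract and the control (3 points per diet, with bars for the mean and SD). The diets are well apart for pgp-1, whose nuclear extract libraries sit between 15.4 and 17.9 CPM, while for pho-1 and gst-13 the cytoplasmic extract and the control share a level.

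Among families of transporters, some ABC and amino acid transporters rose. None of 11 sugar transporters, 20 vacuolar ATPase genes and 25 innexins passed in edgeR's test. With 1.61% of all genes tested higher, a list of such a size can hold no call without differing from the rest. At an unadjusted p under 0.05 these 3 lists had 2, 1 and 6 higher and 1, 1 and 0 lower genes. Of all genes tested 8.99% were higher and 5.07% lower at this level. The medians of the 3 lists were -0.05, 0.03 and 0.09, and DESeq2 called none of their genes. Of 51 ABC transporters, pumps driven by ATP, 5 rose, against 1.61% of all genes tested. The family's median log2 fold change was 0.05, and 0.01 to 0.06 without 1 extract library. Haf-9 is an ABC transporter of the gut's lysosome-related granules. It stood at 28.1, 32.9 and 24 CPM with the nuclear extract and 13.9, 12.2 and 18 CPM with the cytoplasmic extract. Its levels with the control were 10.5, 11.6 and 10.5 CPM. The extracts did not overlap and all control libraries lay lowest. The log2 fold change was 0.95 (SE 0.145, adjusted p = 0.00447), and the call held in each fit without 1 extract library. The family's calls fell to 2 without any of nuclear replicates 1, 2 and 3 or cytoplasmic replicate 2, to 3 without cytoplasmic replicate 1 or desiccated thymus replicate 3, and were 4 without cytoplasmic replicate 3. Pgp-9 (log2 fold change 0.46, adjusted p = 0.0421) and mrp-1 (0.44, adjusted p = 0.0297) were among the calls so lost: mrp-1 without any 1 extract library or desiccated thymus replicate 3 (adjusted p 0.0559 to 0.144), and pgp-9 without any of these but cytoplasmic replicate 1 (0.0746 to 0.205) and with scaling by library totals (0.0504).

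Amino acid and peptide carriers had a median log2 fold change of 0.10, and 0.06 to 0.13 without 1 extract library. Of 22 tested 4 were higher, against 1.61% of all genes tested. Besides pept-1 they included aat-6, a subunit of an amino acid exchanger, at 6.69, 5.74 and 8.05 CPM with the nuclear extract, 3.24, 2.87 and 3.35 CPM with the cytoplasmic extract and 2.59, 3.31 and 2.25 CPM with the control. The cytoplasmic extract overlapped with the control and the nuclear extract did not overlap with either, and the log2 fold change between the extracts was 1.11 (SE 0.199, adjusted p = 0.0096). The call was lost without nuclear replicate 3 (adjusted p = 0.0526) or cytoplasmic replicate 2 (0.0731). Without either of these libraries 2 of the family's 4 calls were left, and 3 or 4 without the others. Slcf-1, a relative of monocarboxylate carriers that the list holds through its name pattern, rose by 0.86 on the log2 scale (SE 0.136, adjusted p = 0.00481) and held in each fit without 1 extract library. Scav-4, a scavenger receptor of the CD36 family, whose mammalian members bind lipids and lipoproteins, stood at 11.6, 8.6 and 8.72 CPM with the nuclear extract, 3.69, 2.97 and 5.36 CPM with the cytoplasmic extract and 4.1, 3.14 and 3.9 CPM with the control. All nuclear extract libraries were higher than the other 6, which overlapped, and the log2 fold change between the extracts was 1.27 (SE 0.199, adjusted p = 0.00474). Scav-4 held in each fit without 1 extract library and overlaps mff-1 on the other strand. No nucleoside transporter of 9 passed in edgeR's test, at a median log2 fold change of -0.05. At an unadjusted p under 0.05, 2 were higher and 0 lower, against 8.99% and 5.07% of all genes tested. DESeq2 called 1 higher, as did edgeR with scaling by library totals. The nearest was ent-4, at 20.2, 14.4 and 15.5 CPM with the nuclear extract, 10.1, 8.73 and 12.7 CPM with the cytoplasmic extract and 9.19, 7.84 and 6.61 CPM with the control (log2 fold change 0.67, adjusted p = 0.052), which passed without cytoplasmic replicate 3 (0.0325).

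Enzymes that attach sugars or glutathione to foreign and internal compounds rose in part. Of 58 UDP-glucuronosyltransferases 6 passed, all higher, against 1.61% of all genes tested. The family median was 0.13 on the log2 scale, and DESeq2 called 7 higher and 2 lower. The extracts did not overlap for 18 genes in the higher and 8 in the lower direction, against 12.6% and 9.97% of all genes tested. Ugt-48 (chromosome V, 5545669 to 5548062) was the largest of those named: 5.85, 5.63 and 6.58 CPM with the nuclear extract, 2.87, 2.53 and 3.09 CPM with the cytoplasmic extract and 1.43, 1.62 and 1.41 CPM with the control. The diets formed 3 separate levels, and the log2 fold change between the extracts was 1.09 (SE 0.158, adjusted p = 0.00312), and it held in each fit without 1 extract library. Its exons overlap cft-1 on the other strand. The other calls of the family were less stable, since without 1 extract library 1 to 3 of the 6 were left: 1 without nuclear replicate 3 or cytoplasmic replicate 1 or 2, 2 without nuclear replicate 1 or 2 and 3 without cytoplasmic replicate 3. Without desiccated thymus replicate 3, 2 were left. Ugt-31 (log2 fold change 0.86, adjusted p = 0.0218) was lost without nuclear replicate 3 or cytoplasmic replicate 1 or 2 (adjusted p 0.106 to 0.12).

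Of 39 glutathione S-transferases, gst-13 and gst-26 rose, against 1.61% of all genes tested, and both held in each fit without 1 extract library. Gst-13 (chromosome II, 9231457 to 9232344) stood at 16.9, 15.9 and 16.1 CPM with the nuclear extract, 8.48, 6.17 and 7.92 CPM with the cytoplasmic extract and 8.12, 9.56 and 9.36 CPM with the control. The nuclear extract libraries lay within 1 CPM of each other and above the overlapping levels of the other diets, and the log2 fold change was 1.12 (SE 0.139, adjusted p = 0.00077). Gst-26 had 0.84 on the log2 scale (SE 0.134, adjusted p = 0.00511). The family's median was 0.23, and 0.09 to 0.20 without 1 extract library, with 0.09 without cytoplasmic replicate 2 and 0.12 without nuclear replicate 3. Of 54 cytochrome P450 genes, whose enzymes oxidise small molecules, 1 rose, a share near the 1.61% of all genes tested. It was cyp-13A2, by a log2 fold change of 0.86 (adjusted p = 0.0178). The call was lost without nuclear replicate 1 or 3 or cytoplasmic replicate 2 or 3 (adjusted p 0.0602 to 0.121).

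Of fatty acid oxidation and fasting, 42 genes were tested, at a list median of 0.13. At an unadjusted p under 0.05 in edgeR's test, 17 were higher and 3 lower, against 8.99% and 5.07% of all genes tested. The 3 that passed, against 1.61% of all genes tested higher, were acox-1.1, dhs-28 and daf-22, all higher. They encode enzymes of the peroxisomal beta-oxidation that shortens the side chains of ascaroside pheromones: an acyl-CoA oxidase, a dehydrogenase and a thiolase. Dhs-28 stood at 93.7, 92.6 and 87.5 CPM with the nuclear extract, 73.7, 72 and 75.1 CPM with the cytoplasmic extract and 65.8, 73.8 and 74.8 CPM with the control. Nuclear extract libraries were highest and the other diets overlapped, and the log2 fold change was 0.31 (SE 0.0512, adjusted p = 0.00602). The call held in each fit without 1 extract library, and gei-15 overlaps the gene on the other strand. Acox-1.1 stood at 28.7, 27.1 and 28.4 CPM with the nuclear extract, 21.5, 19.4 and 21.9 CPM with the cytoplasmic extract and 15.7, 14.2 and 14.4 CPM with the control. Its 3 diets did not overlap, and its log2 fold change between the extracts was 0.42 (SE 0.0798, adjusted p = 0.0124). The call of acox-1.1 was lost without nuclear replicate 1 or 3 or cytoplasmic replicate 2 (adjusted p 0.0613 to 0.107). That of daf-22 (log2 fold change 0.34, adjusted p = 0.0286) was lost without nuclear replicate 1 or 2, cytoplasmic replicate 1 or 2 (0.121 to 0.17) or desiccated thymus replicate 3 (0.0615). The hydratase gene maoc-1, the remaining step of the pathway, had a log2 fold change of 0.36 and did not pass (adjusted p = 0.134). Without 1 extract library 1 to 3 of the list's calls were found, with 1 without nuclear replicate 1 or cytoplasmic replicate 2, while DESeq2 called 7 higher and 2 lower, as did the fit of only the extracts.

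Fatty acid synthesis and desaturation had 25 genes tested, of which elo-6 and sbp-1 rose, against 1.61% of all genes tested. Neither held throughout. Elo-6, an elongase of branched-chain fatty acids, stood at 113, 115 and 130 CPM with the nuclear extract, 68.5, 56.7 and 85.8 CPM with the cytoplasmic extract and 68.5, 66.4 and 76 CPM with the control. The nuclear extract was above both other diets in all libraries, and the log2 fold change was 0.76 (SE 0.127, adjusted p = 0.0201). The call was lost without nuclear replicate 1, 2 or 3 or cytoplasmic replicate 1 (adjusted p 0.0509 to 0.0792) and with only the extract libraries fitted (0.14). Sbp-1, the worm's SREBP and a regulator of fat synthesis genes, had a log2 fold change of 0.39 (adjusted p = 0.028) and was lost without any of the extract libraries but nuclear replicate 2 (0.0684 to 0.138) and without desiccated thymus replicate 3 (0.0559). The list's count was 0 without nuclear replicate 1 or 3 or cytoplasmic replicate 1, 1 without nuclear replicate 2 or cytoplasmic replicate 2, and 3 without cytoplasmic replicate 3, and DESeq2 called 5 higher and 1 lower. Sbp-1 overlaps idpc-1 on the other strand. The desaturase fat-5 had a log2 fold change of 0.63 and did not pass (adjusted p = 0.0574). Sams-1, the S-adenosylmethionine synthase that feeds phosphatidylcholine synthesis, had one of 0.79 (adjusted p = 0.0281), lost without nuclear replicate 1 or 3 or cytoplasmic replicate 1 or 3 (0.101 to 0.126), without desiccated thymus replicate 3 (0.0549) and with only the extracts fitted (0.0809).

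The yolk genes had a median log2 fold change of 0.10, and 0.05 to 0.12 without 1 extract library. Positive were 8 of 10, against 52.9% of all genes tested. For 4 of the 10 the extracts did not overlap in the higher direction, against 12.6% of all genes tested, and DESeq2 called 2. Of 10 vitellogenin and yolk uptake genes 1 rose in edgeR's test, against 1.61% of all genes tested. This was vit-1, at 808, 717 and 594 CPM with the nuclear extract, 354, 362 and 472 CPM with the cytoplasmic extract and 259, 336 and 297 CPM with the control. Vit-1 had 0.83 on the log2 scale (SE 0.154, adjusted p = 0.0369). Its call was lost without nuclear replicate 1 or 2 or cytoplasmic replicate 1 or 2 (adjusted p 0.111 to 0.18), without desiccated thymus replicate 3 (0.0746), without a filter on low counts (0.0534) and with only the extracts fitted (0.131). Vit-1 also shares much of its sequence with vit-2, so its count is uncertain. Vit-2 itself, at far higher counts, had a log2 fold change of 0.02, and the yolk receptor rme-2 one of 0.02.

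Enzymes that make, salvage and break down purines and pyrimidines gave 4 higher genes of 27, against 1.61% of all genes tested. The list median was 0.02, and -0.01 without cytoplasmic replicate 1. Dpyd-1, which starts the breakdown of uracil and thymine, stood at 42, 42.2 and 38.1 CPM with the nuclear extract, 30.5, 28.5 and 29.3 CPM with the cytoplasmic extract and 24.7, 27.2 and 29.7 CPM with the control. Hprt-1, which salvages purine bases, stood at 43.2, 45.6 and 41.2 CPM with the nuclear extract, 33.9, 32.1 and 34.5 CPM with the cytoplasmic extract and 33.2, 34.5 and 33.7 CPM with the control. For both genes all nuclear extract libraries were above all others, while the cytoplasmic extract and the control overlapped. Dpyd-1 rose by 0.47 on the log2 scale (SE 0.0775, adjusted p = 0.00602) and hprt-1 by 0.37 (SE 0.0601, adjusted p = 0.00524), and both held in each fit without 1 extract library. Atic-1 and pfas-1 belong to the synthesis of purines from small precursors. Atic-1 had a log2 fold change of 0.48 (adjusted p = 0.0196), lost without nuclear replicate 1 or 3 or cytoplasmic replicate 1 or 2 (0.0789 to 0.101). Pfas-1 had one of 0.44 (adjusted p = 0.0306), lost without any 1 of the extract libraries (0.0533 to 0.2) or desiccated thymus replicate 3 (0.0664). The list's count was 2 without nuclear replicate 1 or 3 or cytoplasmic replicate 1 or 2. Atic-1 overlaps arp-11 and pfas-1 overlaps lips-3, both on the other strand.

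Collagens of the cuticle included the gene with the smallest p-value of the comparison, col-143. Of 137 collagens tested 7 rose and none fell, against 1.61% and 0.164% of all genes tested, and DESeq2 called 12 higher. Col-143 (chromosome V, 6835635 to 6836704) stood at 162, 170 and 156 CPM with the nuclear extract, 87.6, 90 and 91.4 CPM with the cytoplasmic extract and 68.5, 76.7 and 68.6 CPM with the control. Col-101 (chromosome IV, 325435 to 327020) stood at 174, 170 and 157 CPM with the nuclear extract, 93.5, 91.5 and 98.4 CPM with the cytoplasmic extract and 67.8, 84.2 and 78.8 CPM with the control. Each gene formed 3 separate levels. For col-101 the highest control library, at 84.2 CPM, lay near the lowest cytoplasmic one, at 91.5 CPM. The log2 fold change between the extracts was 0.86 for col-143 (SE 0.0528, adjusted p = 5.42e-07) and 0.82 for col-101 (SE 0.0668, adjusted p = 3.1e-05). With col-95 (0.52), col-122 (0.47) and col-106 (0.34) these were the 5 collagens that passed in each fit without 1 extract library and without desiccated thymus replicate 3. Col-103 (0.75, adjusted p = 0.0455) and col-119 (0.69, adjusted p = 0.0372) were lost without any 1 of those 7 libraries (0.0687 to 0.215) and without a filter on low counts (0.122 and 0.0604). Col-143 overlaps T15B7.15 and col-103 overlaps gst-40 on the other strand.

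The rest of the collagen family did not move as one. The family median was 0.36 with all libraries, but -0.17 without nuclear replicate 2 and 0.12 without cytoplasmic replicate 3. Summed collagen transcripts came to 2630, 4000 and 2890 CPM with the nuclear extract, 2530, 2430 and 1850 CPM with the cytoplasmic extract and 1470, 2430 and 1730 CPM with the control. Nuclear replicate 2 was far above the others and is also the library with the highest sperm sum. The 44 sperm genes tested gave no call with edgeR or DESeq2 and 1 unadjusted p under 0.05, with a median of 0.38 that turned to -1.56 without nuclear replicate 2 and to -0.16 without cytoplasmic replicate 3. The hypodermis markers had a median of 0.36 that was 0.06 without nuclear replicate 3 and 0.25 to 0.54 without another extract library. Of the 11, 2 were called higher, against 1.61% of all genes tested. One was elt-3, a transcription factor of the skin, with a log2 fold change of 0.71 (adjusted p = 0.0486), lost without any 1 extract library or desiccated thymus replicate 3 (0.0689 to 0.206), with scaling by RLE factors (0.0526) or library totals (0.0545), with only the extracts fitted (0.0523) and without ribosomal RNA genes (0.0541). Without 1 extract library 0 or 1 hypodermis marker passed, and 1 without desiccated thymus replicate 3.

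**Figure D3:**
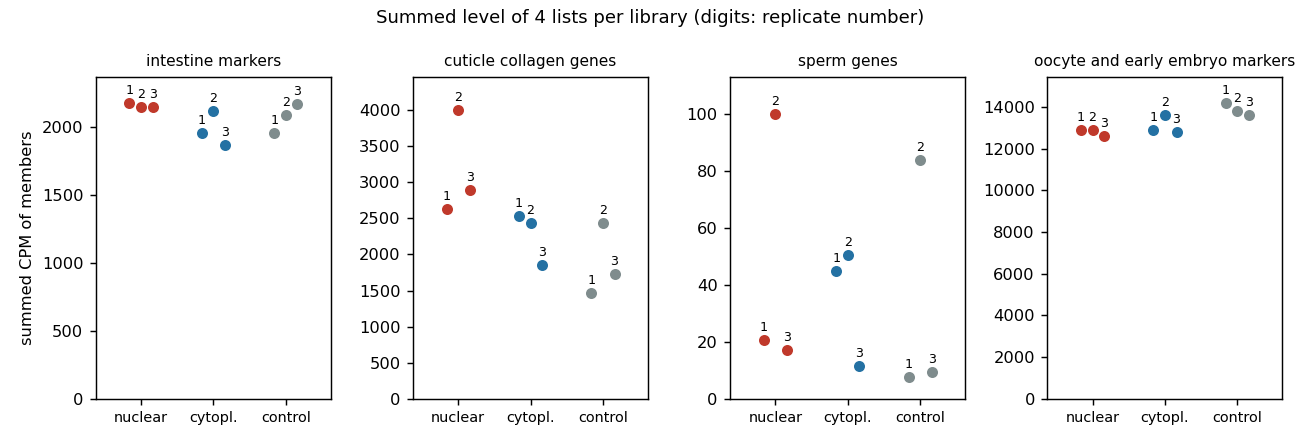
Summed CPM (vertical axis) of the intestine markers, collagens, sperm genes and oocyte and early embryo markers in each library, with the nuclear extract left, the cytoplasmic extract in the middle and the control right, and the replicate number at each point. The collagen sum of nuclear replicate 2, 4000 CPM, and the sperm sums of nuclear replicate 2, 100 CPM, and control replicate 2, 83.8 CPM, stand away from the others of their diets.

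Some genes of defence and of regulation rose. Of 111 C-type lectins tested, a family with many members induced by microbes, 7 rose, against 1.61% of all genes tested. The family median was 0.20. Clec-41 was the abundant one, at 354, 394 and 352 CPM with the nuclear extract, 279, 278 and 233 CPM with the cytoplasmic extract and 252, 264 and 289 CPM with the control. All nuclear extract libraries lay above the overlapping other diets, and the log2 fold change was 0.48 (SE 0.0731, adjusted p = 0.00775). The call held in each fit without 1 extract library. The family's count dropped to 1 without nuclear replicate 1, to 2 without cytoplasmic replicate 1 or 2, to 3 without nuclear replicate 2 or desiccated thymus replicate 3, and to 4 without nuclear replicate 3 or cytoplasmic replicate 3. Clec-166 (log2 fold change 0.61, adjusted p = 0.0154) was lost without nuclear replicate 1 or 3 or cytoplasmic replicate 1 or 2 (0.0728 to 0.108). Of 177 nuclear hormone receptors, ligand-controlled transcription factors, 3 rose and none fell, a share near the 1.61% of all genes tested, and 1 passed without nuclear replicate 1 or 3 or any 1 cytoplasmic library. Nhr-121 held in each fit without 1 extract library, and its log2 fold change was 0.89 (SE 0.144, adjusted p = 0.0057). Egl-13, a SOX transcription factor, stood at 5.58, 5.59 and 6.88 CPM with the nuclear extract, 2.75, 2.7 and 3.61 CPM with the cytoplasmic extract and 2.67, 2.81 and 2.87 CPM with the control. The nuclear extract stood alone, and the log2 fold change was 0.99 (SE 0.178, adjusted p = 0.0096), a call lost without nuclear replicate 3 or cytoplasmic replicate 1 or 2 (0.0526 to 0.0738). Let-383 (1.25, adjusted p = 0.00586) and ifbp-1 (1.01, adjusted p = 0.00312) completed the higher genes of largest change, and both held in each fit without 1 extract library. Let-383 overlaps T21G5.2 on the same strand, and ifbp-1 overlaps srx-125 on the other.

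Genes lower with the nuclear extract were few, and the 2 that held in each fit without 1 extract library were Y94H6A.10 and ptr-22. Ptr-22, a patched-related gene under 5 CPM that is singled out here after its values were seen, stood at 1.46, 1.33 and 1.55 CPM with the nuclear extract, 3.69, 3.94 and 3.46 CPM with the cytoplasmic extract and 2.07, 1.79 and 1.76 CPM with the control. The 3 diets did not overlap, with the cytoplasmic extract highest and the nuclear extract lowest. The log2 fold change between the extracts was -1.35 (SE 0.24, adjusted p = 0.00926). Y94H6A.10 lies on chromosome IV (2710121 to 2710666). This gene stood at 152, 148 and 149 CPM with the nuclear extract, 178, 202 and 198 CPM with the cytoplasmic extract and 263, 270 and 261 CPM with the control. The diets formed 3 separate levels in the order nuclear, cytoplasmic, control, and the log2 fold change between the extracts was -0.37 (SE 0.0425, adjusted p = 0.000408).

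Wdfy-3 and ZK669.3 had the control on the side of the nuclear extract. Wdfy-3, the homologue of mammalian Alfy, which links protein aggregates to autophagy, stood at 34.1, 34.3 and 36.8 CPM with the nuclear extract, 46.2, 48.2 and 47.6 CPM with the cytoplasmic extract and 28.4, 31.1 and 36.5 CPM with the control. Here the cytoplasmic extract stood alone above overlapping levels of the other diets, and the log2 fold change was -0.43 (SE 0.0768, adjusted p = 0.00926). The call was lost without nuclear replicate 1 (0.0504). Wdfy-3 overlaps C26H9A.4 on the same strand and VT23B5.1 on the other, and ZK669.3 overlaps dbt-1 on the other. ZK669.3 stood at 12.8, 12.8 and 13.1 CPM with the nuclear extract, 19.9, 16.8 and 18.4 CPM with the cytoplasmic extract and 11.3, 10.6 and 11.7 CPM with the control (log2 fold change -0.51, adjusted p = 0.0117), lost without nuclear replicate 1 (0.0612) or cytoplasmic replicate 1 (0.0676). Lgg-2, an LC3 homologue of the autophagosome membrane, had the control on the side of the cytoplasmic extract instead. It stood at 149, 153 and 152 CPM with the nuclear extract, 170, 186 and 168 CPM with the cytoplasmic extract and 168, 170 and 179 CPM with the control. Lgg-2 differed between the extracts by a log2 fold change of -0.21 (adjusted p = 0.0208). Its call was lost without nuclear replicate 1, 2 or 3 or cytoplasmic replicate 2 (0.0569 to 0.101) and with scaling by library totals (0.182).

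The remaining named genes that fell were fbxc-58 (log2 fold change -0.93, adjusted p = 0.0196), ets-7 (-0.70, adjusted p = 0.0238), mfb-1 (-0.47, adjusted p = 0.0295), math-27 (-0.35, adjusted p = 0.0216), fbxl-1 (-0.33, adjusted p = 0.0208), mlcd-1 (-0.20, adjusted p = 0.0462) and eak-7 (-0.19, adjusted p = 0.0392). Fbxc-58 and fbxl-1 carry F-box domains, which hand proteins to the ubiquitin system, and mfb-1 is the homologue of the muscle atrophy F-box protein of mammals. Ets-7 is an ETS transcription factor, mlcd-1 encodes malonyl-CoA decarboxylase, and eak-7 acts on the transcription factor DAF-16 together with the kinase akt-1. None of them held in each fit without 1 extract library. Mfb-1, mlcd-1 and eak-7 were lost without any 1 of the 6 (adjusted p 0.0608 to 0.205). Math-27, a pseudogene in the table, was lost without any but cytoplasmic replicate 1 (0.0555 to 0.113), and fbxl-1 without any but cytoplasmic replicate 3 (0.0526 to 0.0956). Fbxc-58 was lost without nuclear replicate 1, 2 or 3 or cytoplasmic replicate 2 (0.0555 to 0.113), and ets-7 without nuclear replicate 2 or 3 or cytoplasmic replicate 1 or 3 (0.0694 to 0.104). Mlcd-1 and eak-7 were also lost without desiccated thymus replicate 3 (0.0746 and 0.0584), and with library totals these and fbxl-1 were lost (0.295, 0.252 and 0.0515). Fbxl-1 overlaps henn-1 and rfs-1 on the same strand, and mlcd-1 overlaps pan-1 on the other.

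Large groups of genes gave no call between the extracts in edgeR's test. At an unadjusted p under 0.05, 8.99% of all genes tested were higher and 5.07% lower with the nuclear extract. None of 78 cytosolic ribosomal protein genes passed, at a median of 0.09, none of 46 respiratory chain genes, at 0.04, and none of 33 glycolysis and TCA cycle genes, at 0.04. Their unadjusted p was under 0.05 for 5, 4 and 5 higher genes in that order and for 1 lower gene of the last list. Positive were 74, 39 and 28 of these genes in the same order, against 52.9% of all genes tested. The extracts did not overlap in the higher direction for 13, 6 and 6 of them, against 12.6% of all genes tested. In the lower direction they did not overlap for 0, 0 and 1, against 9.97%. Germline groups lay just below 0, with medians of -0.03 for 11 oocyte and early embryo markers, -0.05 for 27 DNA replication genes and -0.05 for 27 mitosis and cell cycle genes, and no call. At an unadjusted p under 0.05, 0, 5 and 2 of these genes were lower and none higher. All 27 DNA replication genes had a negative log2 fold change, and for 9 of them the extracts did not overlap, against 9.97% of all genes tested lower with the nuclear extract. All 17 body wall muscle genes and 17 of 20 neuron markers were positive, against 52.9% of all genes tested. The extracts did not overlap in the higher direction for 5 of each list, against 12.6% of all genes tested. Without 1 extract library the muscle median was 0.11 (without nuclear replicate 2) to 0.30 and the neuron median 0.09 to 0.22. Body wall muscle genes (17, median 0.22) and neuron markers (20, median 0.13) gave no call either, with 2 and 3 higher and 0 and 1 lower at an unadjusted p under 0.05. DESeq2 called 1 neuron marker higher, 1 heat shock gene lower and none in the other lists of this paragraph. Of 17 cytosolic heat shock genes none passed, at a median of -0.02, with 3 lower at an unadjusted p under 0.05. The inducible hsp-70 stood at 58.3, 79.1 and 69.1 CPM with the nuclear extract, 90.2, 151 and 115 CPM with the cytoplasmic extract and 244, 288 and 357 CPM with the control. Its 3 diets did not overlap, yet the log2 fold change of -0.79 between the extracts did not pass (SE 0.252, adjusted p = 0.206). The small chaperones hsp-16.41 (-0.80, adjusted p = 0.211) and hsp-16.2 (-0.71, adjusted p = 0.234) also did not pass, with cytoplasmic replicate 1 lying near the nuclear extract libraries and replicates 2 and 3 above them. Without cytoplasmic replicate 1 both passed as lower (adjusted p = 0.0122 for hsp-16.41 and 0.0202 for hsp-16.2).

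**Figure D4:**
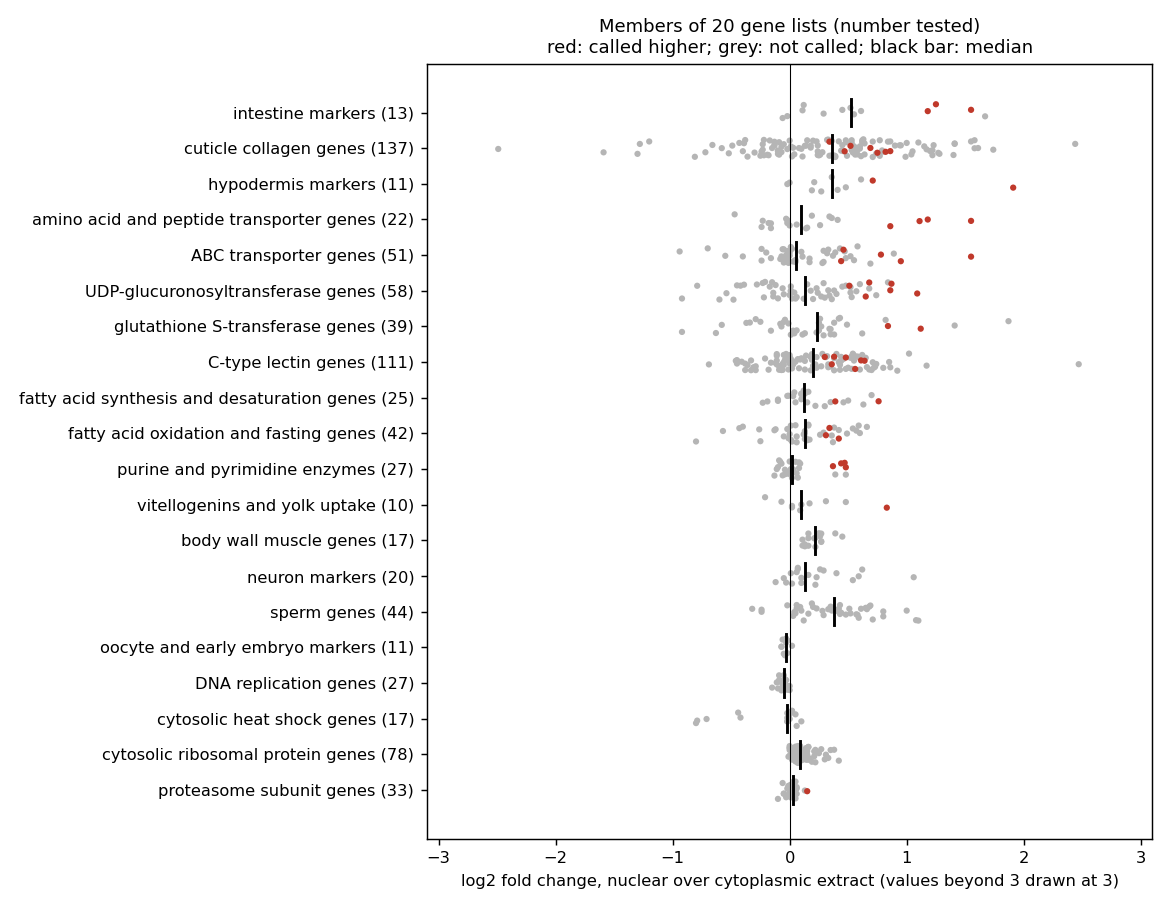
Log2 fold change, nuclear over cytoplasmic extract, of each tested member of 20 gene lists (points) with the list's median (black bar). Red points passed and grey points did not. The intestine markers have a median of 0.52 and 3 red members, and the DNA replication genes lie close to 0 with none.

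The control gave the levels a reference, as a description without a test. Of the 235 genes higher with the nuclear extract, the control's mean lay below both extracts for 156 (66.4%), between them for 78 (33.2%) and above both for 1 (0.426%). Among genes that did not pass, the shares in that order were 40.4%, 21.9% and 37.7%. The control was nearer to the cytoplasmic extract for 218 of the 235 (92.8%), and for 65.3% of the genes that did not pass. Since genes were chosen for a difference between the extracts, errors in these favour a control in between or near one of them. Of the 24 lower genes the control lay above both for 5, between for 15 and below both for 4. Among the 55 higher genes that held in each fit without 1 extract library, 43 had the control below both extracts, against 40.4% of genes that did not pass. The higher genes lay on all 6 nuclear chromosomes, with the largest share on X, where 51 of 2092 genes tested (2.44%) rose, and the smallest on III (1.04%).

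**Figure D5:**
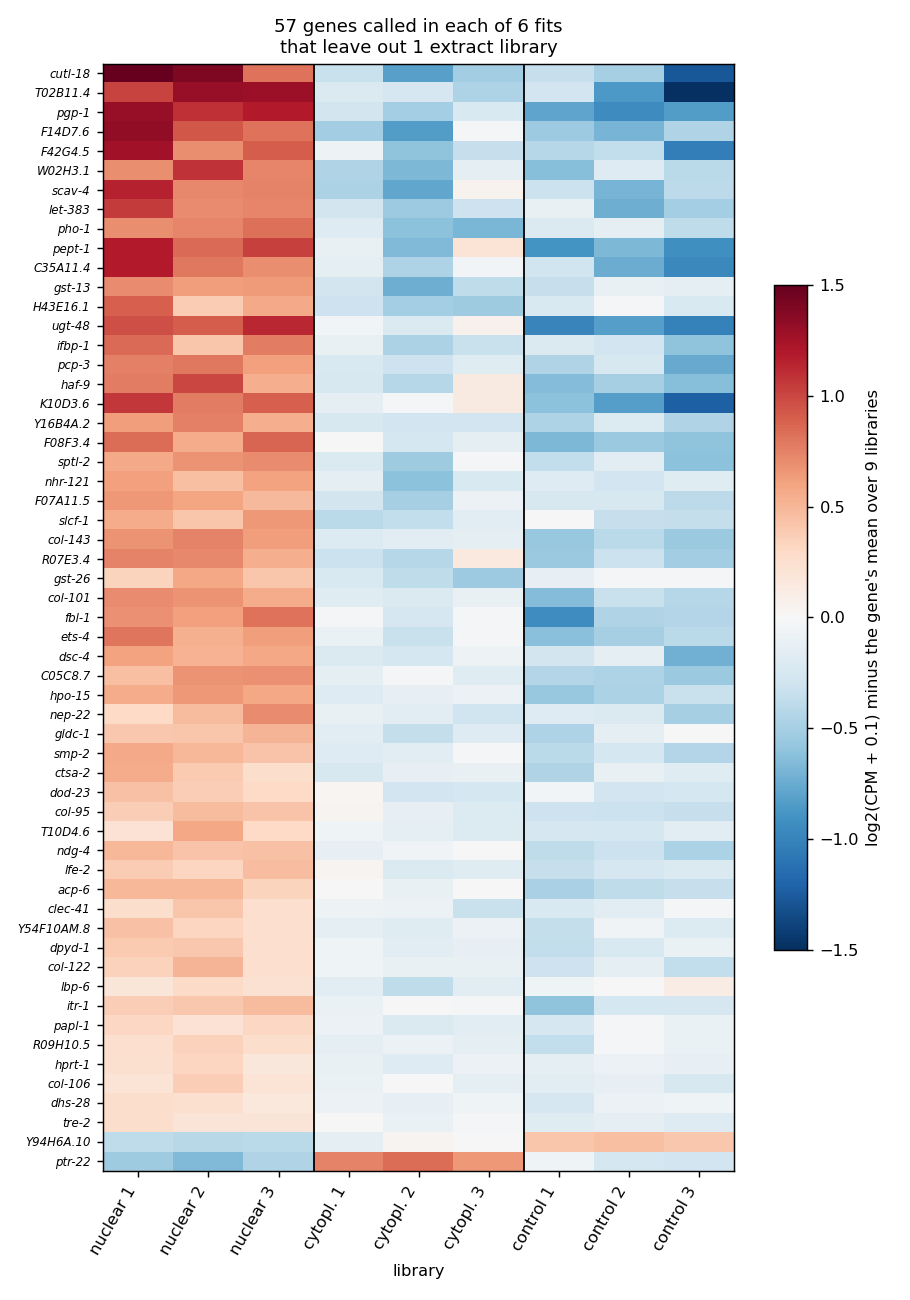
Levels of the 57 genes that passed in each of the 6 fits without 1 extract library, as log2(CPM + 0.1) minus the gene's mean over the 9 libraries shown, with the nuclear extract left, the cytoplasmic extract in the middle and the control right. For 55 genes the nuclear extract columns are the higher of the extracts, and for 2 genes the lower.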

How the data were processed

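Whole-worm messenger RNA was measured in 12 libraries. The authors deposited raw read counts per gene, made with Trimmomatic, STAR and featureCounts, with DESeq2 also named, per the submitters' processing notes and without versions. How strand and multiple matches were handled is not given in the sources used here, which leaves near-identical copies and overlapping genes uncertain. The molecule field (nuclear RNA) disagrees with the protocol, which extracts total RNA. Count columns carry initials of the diets, and each was matched by these and its number to a sample title, an inference from names. Of 46929 genes, 46925 matched a RefSeq table of WBcel235, with equal starts for 98.6%.

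Genes were filtered by filterByExpr (minimum count 10), scaled by TMM and fitted over all 12 libraries with 1 mean per diet (edgeR 4.0.16, R 4.3.3, robust quasi-likelihood, 8 residual degrees of freedom), two-sided. CPM use TMM-scaled totals. The code was tested on simulated data. Replicate pairs of these diets differed by more than sampling noise (chi-square per degree of freedom 5.85 to 30.9). This cannot tell separate cultures from technical repeats, and each library was counted as 1 sample. Alternatives were DESeq2 1.42.0, other scalings and filters, fewer libraries and a replicate block.

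Genes named passed the threshold of 0.05 without overlap of the extracts' libraries, and the higher extract averaged 5 CPM or more. They were the 10 higher and 10 lower of largest change with a gene name, the 3 of smallest p in each direction, and up to 4 called members per direction of each of 63 lists. List members that did not pass are named with their values. The members and lists were chosen with earlier results of these data known. Some genes that meet the rule are not reported here.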

Additional observations from a re-analysis of the deposited data

How the results depend on the processing

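No named gene turned its direction under any alternative run, and none of the 259 genes did under RLE factors or library totals. The count of 259 genes was within 1.5 times of that value under RLE factors (239), library totals (214), no filter on low counts (357), a filter of 1 CPM in 3 libraries (277), only the 6 extract libraries (335) and without ribosomal RNA genes (232). It was not under DESeq2 (474 genes, 384 higher and 90 lower) or without desiccated thymus replicate 3 (151 genes, 130 higher and 21 lower, 24 of them at least 2-fold). Genes lower numbered 15 with library totals, 59 with no filter and 64 with only the extracts. Without 1 extract library, 87 to 156 genes passed, 78 to 141 higher, 4 to 15 lower and 16 to 41 at least 2-fold. Called in all of these fits, and in the replicate block fit over all libraries, were 53 higher and 2 lower genes. Replicate numbers were not shown to pair samples: the deviations of same-numbered libraries from their diets' means correlated at -0.353, 0.429 and 0.337, and not every library correlated best with its own number. The fit with a replicate block called 259 genes, of which 222 were shared with the fit without it. With this block vit-1, elt-3, col-103, sams-1 and mlcd-1 were not called (edgeR, adjusted p = 0.0845, 0.0598, 0.0791, 0.0542 and 0.0633). A replicate block with only the extract libraries, an alternative chosen after seeing the data, called 494 genes (397 higher, 97 lower, 58 at least 2-fold). In this fit haf-9, vit-1 and sams-1 were not called (adjusted p = 0.13, 0.347 and 0.218). The causes of these differences were not tested. At low level, where few reads stand behind a value, some genes passed (ptr-22) and others did not: the heme transporter gene hrg-4, at 1.42, 1.29 and 1.34 CPM with the nuclear extract and 0.566, 0.371 and 0.335 CPM with the cytoplasmic extract, had a log2 fold change of 1.67 and did not pass (adjusted p = 0.0604).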

Other observations

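Outside the rule for named genes, the 55 higher genes that held in each fit without 1 extract library included further genes with known roles, picked here after their values were seen. Dsc-4, the microsomal triglyceride transfer protein that loads lipid onto yolk lipoproteins, stood at 55.5, 52.1 and 54.5 CPM with the nuclear extract, 31.2, 30.4 and 34.5 CPM with the cytoplasmic extract and 30.1, 32.9 and 22.1 CPM with the control (log2 fold change 0.76, SE 0.117, adjusted p = 0.00641, edgeR). The nuclear extract libraries stood above the other 6, which overlapped. Sptl-2, a subunit of serine palmitoyltransferase, the first enzyme of sphingolipid synthesis, had a log2 fold change of 0.91 (adjusted p = 0.00514). Lbp-6, a lipid-binding protein, stood at 66.1, 71.2 and 68.4 CPM with the nuclear extract, 51.8, 45 and 52 CPM with the cytoplasmic extract and 55.8, 58.1 and 62.9 CPM with the control, so the cytoplasmic extract was the lowest diet in all libraries (log2 fold change 0.47, adjusted p = 0.00191). Tre-2, a trehalase, differed by 0.26 (adjusted p = 0.00447), and gldc-1, the glycine decarboxylase of the glycine cleavage system, by 0.68 (adjusted p = 0.00173).

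Itr-1, the IP3 receptor that releases calcium from the endoplasmic reticulum, and lfe-2, the IP3 kinase that removes its ligand, were both higher. Itr-1 stood at 62.8, 64.6 and 67.7 CPM with the nuclear extract, 45.4, 48.4 and 47.8 CPM with the cytoplasmic extract and 31.9, 40.3 and 40.9 CPM with the control (log2 fold change 0.46, SE 0.0779, adjusted p = 0.00641). Lfe-2 stood at 40, 38.5 and 42.6 CPM with the nuclear extract, 31.7, 26.6 and 27.2 CPM with the cytoplasmic extract and 24.1, 25.9 and 26.6 CPM with the control (0.50, SE 0.0772, adjusted p = 0.00441). The extracts did not overlap for either gene. Ets-4, an ETS transcription factor, had a log2 fold change of 0.81 (adjusted p = 0.00191). The 224 F-box genes tested leaned lower with the nuclear extract, at a median of -0.13 that ran from -0.17 to -0.10 without 1 extract library. Of them 2 rose and 1 fell, against 1.61% and 0.164% of all genes tested, and each count was 0 or 1 without any 1 extract library. For 40 the extracts did not overlap in the lower direction, against 9.97% of all genes tested.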
